A study of Danio rerio with 18 samples.

Results

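The 5 genes described are mhc1haa, b2m, tap1, tapbp.1 and psmb8a, which belong to class I antigen presentation, among 19247 genes named by 1 symbol on the array. They were taken by gene symbol, and b2m, the only one with 2 rows, was represented by the row with the higher mean over all 18 arrays. The gene mhc1haa was chosen from these measurements, as the gene that marked DMSO Runx+ cells and was lower with Lycorine. Its values in any comparison that holds a Runx+ group are therefore a description, with no test.

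Transcripts were measured in cells sorted from 3 dpf zebrafish embryos (AB strain) with the transgenes Runx1+23:GFP and kdrl:DsRed2, both shared by all groups. Pools of embryos were kept from 2 to 3 dpf in 75 µM Lycorine with 1% DMSO, or in 1% DMSO alone. Lycorine is a plant alkaloid known as an inhibitor of protein synthesis. The groups were Lycorine Runx+, DMSO Runx+, Lycorine kdrl+, DMSO kdrl+, Lycorine negative and DMSO negative, with 3 arrays each. The Runx1+23 enhancer drives GFP in blood stem and progenitor cells, the kdrl promoter drives DsRed2 in endothelium, and negative cells showed neither colour. RNA was amplified with a whole-transcriptome kit before labelling. The labels call the arrays of a group biological replicates, but do not say which pools of embryos they came from. If pools were shared, p-values measure only a spread that may be technical. Values are log2 intensities, differences are log2 ± SE from limma, and a call is an adjusted p below 0.05 over all genes. With 3 arrays a group the number of arrays limits the precision, and levels of different genes on an array cannot be compared as transcript amounts. A gene is called dim where its intensity was low against the other genes of the array.

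Class I molecules display peptides from inside a cell to CD8 T cells. A heavy chain, encoded by a large gene family, pairs with the small light chain beta-2 microglobulin, encoded by b2m. Proteasomes cut the peptides, a transporter that contains Tap1 moves them into the endoplasmic reticulum, and tapasin, encoded by tapbp genes, holds the empty heavy chain at the transporter while it is loaded. Interferon raises many of these genes, among them the immunoproteasome subunit gene psmb8a.

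The sorts were first set against their markers. The gene kdrl was higher in kdrl+ than in negative cells by 4.64 ± 0.32 under Lycorine and by 3.73 ± 0.32 in DMSO, and 13 of 13 endothelial markers were higher in both treatments. The gene runx1 differed by only 0.24 ± 0.21 between Runx+ and negative cells in DMSO (limma adjusted p = 0.697), and 0 of 9 markers of blood stem and progenitor cells passed the test there. Over all genes 1 of 19247 (0.0052%) was called in that comparison, so the count of 0 says little. Of the 9 markers, itga2b, an integrin gene of thrombocytes and early blood progenitors, differed by 2.18 ± 0.39 (adjusted p = 0.0774). These tests thus did not show whether the markers set the fraction labelled Runx+ apart from negative cells, and it is called here by its reporter. In kdrl+ against negative cells, 5 of the 9 were higher and 1 lower in DMSO, and 3 were higher and 0 lower under Lycorine. Over all genes 10.5% and 12.9% were called there. The gene runx1 was among those higher, by 0.82 in DMSO (limma adjusted p = 0.0203) and 0.78 under Lycorine (adjusted p = 0.0221). Each of these runx1 calls was lost without any 1 of 3 arrays. Of 5 leukocyte markers, 5 were higher in kdrl+ than in negative cells under Lycorine and 4 in DMSO. Markers of liver, pancreas and gut had a mean level of 8.08, 8.65 and 9.12 in the DMSO Runx+, kdrl+ and negative arrays numbered 2, and of 7.77 in DMSO Runx+ replicate 3. The other 14 arrays lay between 5.72 and 6.58. In sorted bulk samples, fewer cells of a type and less RNA per cell cannot be told apart.

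The heavy chain gene mhc1haa was brightest in DMSO Runx+ cells and lower in Lycorine Runx+ cells, while the other 4 groups lay close together. The Lycorine Runx+ arrays read 6.28, 6.51 and 5.99, against 7.44, 7.99 and 7.84 in DMSO Runx+ cells. All 3 Lycorine arrays lay below all 3 DMSO arrays. The means were 6.26 ± 0.26 with Lycorine and 7.76 ± 0.29 in DMSO (SD, n = 3 each), a difference of -1.50 ± 0.23, so that the geometric mean intensity with Lycorine was 0.354 times that in DMSO. In kdrl+ cells mhc1haa read 6.12, 5.56 and 5.84 with Lycorine and 5.43, 5.90 and 5.83 in DMSO. In negative cells it read 5.62, 5.51 and 5.73 with Lycorine and 5.71, 6.26 and 6.12 in DMSO. In both of these sorts the ranges of the treatments overlapped.

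**Figure D1:**
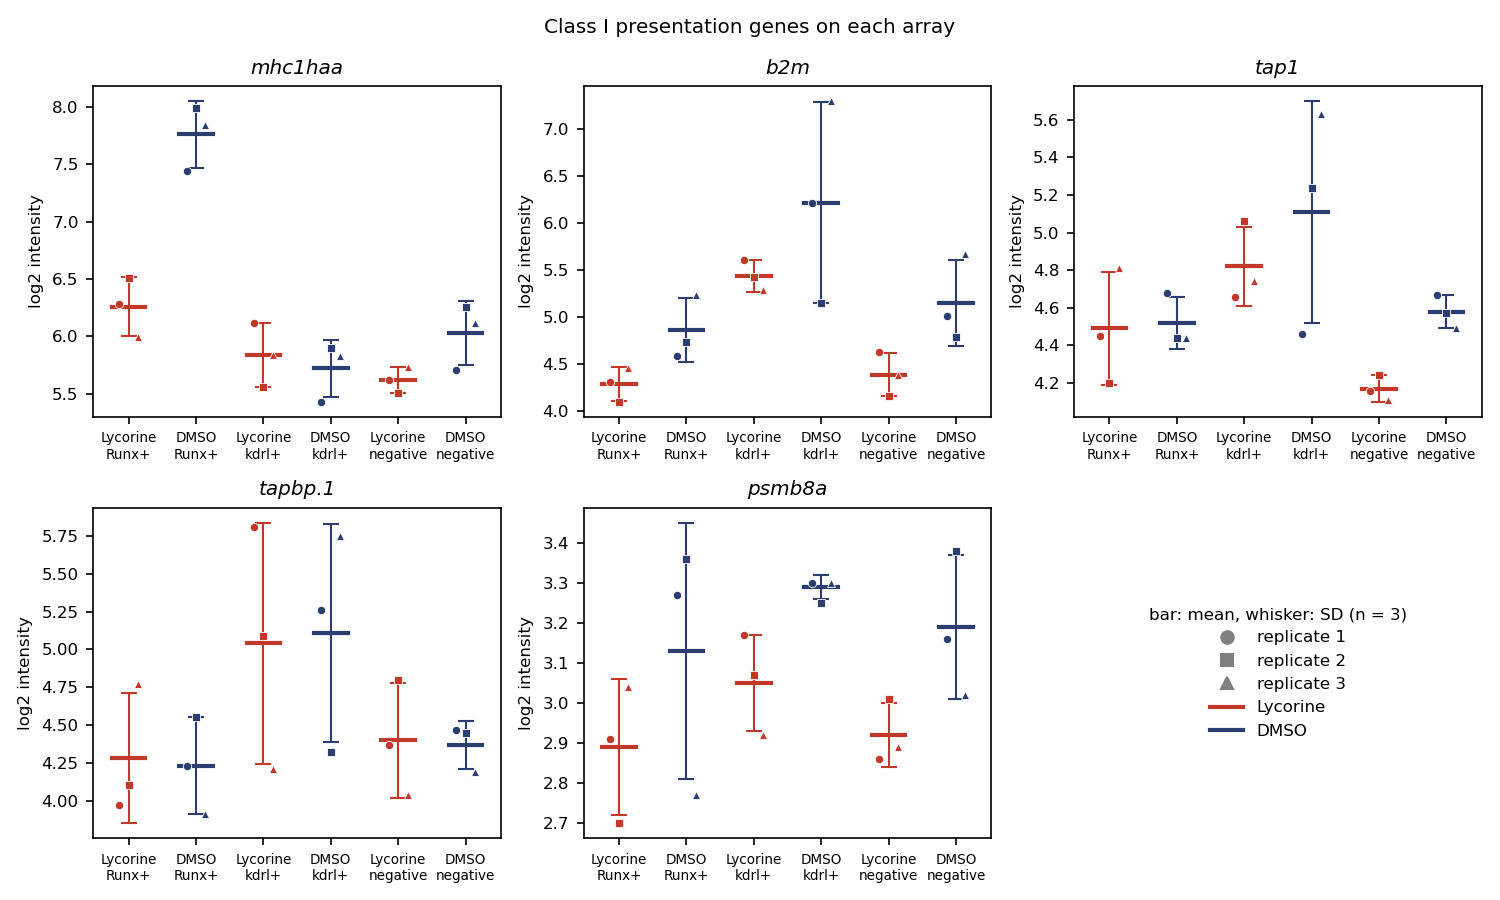
Log2 intensity of mhc1haa, b2m, tap1, tapbp.1 and psmb8a on each of the 18 arrays, with a scale of its own for each gene. Horizontal bars are group means, whiskers the SD of 3 arrays, red is Lycorine and blue DMSO; mhc1haa stands highest in DMSO Runx+ cells, with all 3 arrays above 7.4, while b2m has its highest mean in DMSO kdrl+ cells.

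In the order of group means mhc1haa ran from DMSO Runx+ (7.76) through Lycorine Runx+ (6.26), DMSO negative (6.03), Lycorine kdrl+ (5.84) and DMSO kdrl+ (5.72) to Lycorine negative (5.62). Only the step of 1.5 between the first 2 groups separated arrays that did not overlap. Every later neighbour in this order overlapped with the one before it, with steps of 0.10 to 0.23. In DMSO, Runx+ exceeded negative cells by 1.72 ± 0.23, or 3.30-fold, and kdrl+ cells by 2.04 ± 0.23, or 4.10-fold. Under Lycorine the same differences were 0.64 ± 0.23 and 0.42 ± 0.23. The arrays of mhc1haa in Lycorine Runx+ cells still lay above all 3 Lycorine negative arrays, and overlapped with the Lycorine kdrl+ arrays.

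The comparisons of mhc1haa that left out Runx+ cells were tested, although the DMSO negative arrays are shared with the choice of the gene. The DMSO kdrl+ arrays may be too, since a gene that marks DMSO Runx+ cells is lower in the other DMSO sorts. Only kdrl+ against negative cells under Lycorine holds neither of these groups, and the other p-values are limited by the choice. None of these comparisons passed. Lycorine minus DMSO was 0.12 ± 0.23 in kdrl+ cells (95% interval -0.36 to 0.59, limma adjusted p = 0.87) and -0.41 ± 0.23 in negative cells (-0.89 to 0.06, adjusted p = 0.756). The Lycorine effect on mhc1haa in kdrl+ minus that in negative cells was 0.53 ± 0.32 (adjusted p = 0.999). Between kdrl+ and negative cells mhc1haa differed by 0.22 ± 0.23 under Lycorine (adjusted p = 0.693) and by -0.31 ± 0.23 in DMSO (adjusted p = 0.458). The Lycorine effect in Runx+ cells lay 1.61 ± 0.32 below that in kdrl+ cells and 1.08 ± 0.32 below that in negative cells, as a description.

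Liver, pancreas and gut markers averaged 5.79 to 6.53 in Lycorine Runx+ arrays, against 5.79, 8.08 and 7.77 in DMSO Runx+ arrays. In the same DMSO Runx+ arrays mhc1haa read 7.44, 7.99 and 7.84. Leukocyte markers averaged 5.53 to 5.62 in Lycorine Runx+ arrays, against 5.96, 5.74 and 7.84 in DMSO Runx+ arrays. Without the 3 DMSO arrays numbered 2, mhc1haa differed by -1.38 between Lycorine and DMSO Runx+ cells, and by 1.72 between Runx+ and negative cells in DMSO. The 7 epidermis markers averaged 9.42, 9.72 and 9.11 in Lycorine Runx+ arrays, against 9.27, 10.24 and 10.37 in DMSO Runx+ arrays. Their estimates were lower with Lycorine for 6 of 7 (median -0.35), and higher in Runx+ than negative cells in DMSO for 6 of 7 (median 0.27). None of the 7 passed in these comparisons. The 6 skeletal muscle markers averaged 9.45, 9.03 and 7.83 in Lycorine Runx+ arrays, against 9.46, 9.63 and 10.31 in DMSO Runx+ arrays, with a lower estimate for 6 of 6 and a median of -1.18. They also had higher estimates in Runx+ than negative cells of the DMSO treatment for 6 of 6, with a median of 0.72. The 9 myeloid markers averaged 5.76 to 6.36 with Lycorine, against 6.23 to 8.14 in DMSO Runx+ cells, and had lower estimates for 9 of 9 (median -1.23). The 6 neural markers averaged 8.77 to 9.11 with Lycorine, against 7.75 to 8.66 in DMSO Runx+ cells, and had higher estimates for 6 of 6 (median 0.65). The 4 thrombocyte markers averaged 6.11, 7.33 and 6.09 with Lycorine, against 7.24, 6.67 and 7.55 in DMSO Runx+ cells. Their estimates were lower with Lycorine for 4 of 4 (median -0.63), and higher in Runx+ than negative cells in DMSO for 4 of 4 (median 0.69). No muscle, myeloid, neural or thrombocyte marker passed the test in these comparisons. Of all 19247 genes, 0 were called for Lycorine in Runx+ cells and 1 (0.0052%) between Runx+ and negative cells in DMSO. The absence of called markers in this paragraph thus says little. Most of these lists shifted the same way with Lycorine in kdrl+ and negative cells. Muscle estimates were lower there for 6 of 6 (medians -1.51 and -1.0), and liver, pancreas and gut for 6 of 6 (-1.12 and -0.86). Myeloid estimates were lower for 8 of 9 (-0.39 and -0.55) and epidermis for 6 of 7 (-0.36 and -0.08). Neural estimates were higher for 6 of 6 and 5 of 6 (1.05 and 0.36), and thrombocyte estimates lower for 3 of 4 and 2 of 4. The part of any marker list of this paragraph in the mhc1haa values was not tested.

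The genes just outside the choice that picked mhc1haa, given as a description, were wu:fi75a02 at 1.20 ± 0.19 for Lycorine against DMSO, and cabp2b in Runx+ against negative cells, at 1.42 ± 0.24. In Runx+ cells Lycorine changed 0 of 19247 genes (0%), with 2600 at an unadjusted p below 0.05. Without DMSO Runx+ replicate 1 this count was 1107 of 19247, and without any other single array of the comparison it was 0 or 1. The genes b2m, tap1, tapbp.1 and psmb8a were called in none of these fits, which at such shares says little about them. Runx+ differed from negative cells in DMSO by 1 gene (0.0052%) and under Lycorine by 2 genes (0.0104%). The 1 gene in DMSO was mhc1haa itself, which was chosen from these arrays, so its place in this count is no test of it. When single arrays were left out, the DMSO count became 568, 3 and 25 on removal of Runx+ replicates 1, 2 and 3, and 470 on removal of negative replicate 2, or 0 on removal of negative replicate 1 or 3. Nothing about the members follows from these shares, since the choice used the same arrays.

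The array measured 10 other class I heavy chain genes by name (mhc1laa, mhc1lba, mhc1lda, mhc1lea, mhc1lfa, mhc1lia, mhc1uba, mhc1uka, mhc1ula and mhc1zba), and none was called in any of the 12 comparisons. Over all genes 0% to 12.9% were called in these comparisons. The 10 genes together averaged 3.5 to 3.77 in the 6 groups, while the median gene of an array lay at 5.75 to 6.04. As a set they were thus dim, and little can be read from the absence of calls. Between Lycorine and DMSO their median differences were -0.05 in Runx+, -0.23 in kdrl+ and -0.35 in negative cells, beside medians of -0.04, -0.06 and -0.08 over all genes. The largest difference among them in Runx+ cells was that of mhc1zba, at -1.12 ± 0.65 (limma adjusted p = 0.476). The gene mhc1lfa differed by -0.62 ± 0.20 in Runx+ cells (adjusted p = 0.201), and mhc1laa had the opposite sign, at 0.64 ± 0.34 (adjusted p = 0.428). Between Runx+ and negative cells in DMSO the 10 genes ranged from -0.36 to 0.72. Heavy chain genes are similar in sequence, and how far their probes share transcripts was not tested.

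**Figure D2:**
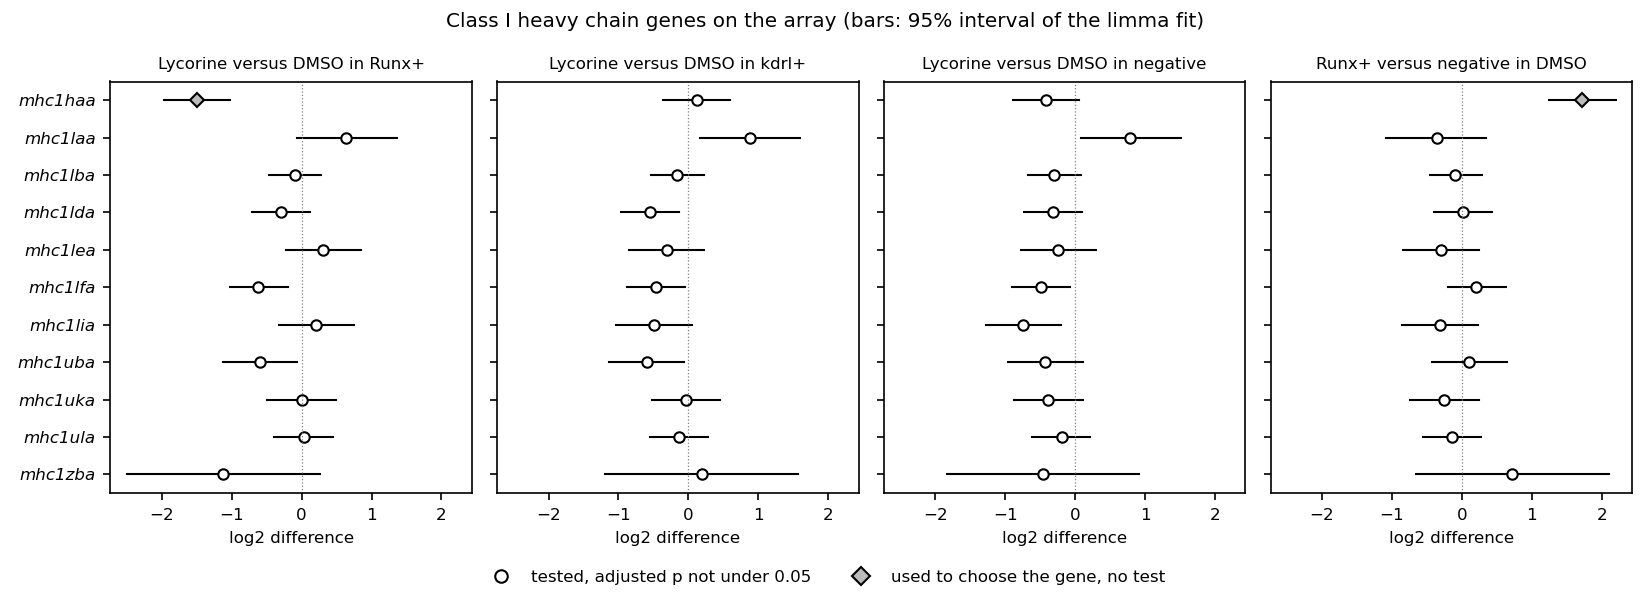
Log2 differences of the 11 class I heavy chain genes, 1 row per gene, in 4 comparisons. Points are limma estimates and lines 95% intervals. Diamonds mark mhc1haa where the choice of the gene used the comparison, and their intervals are a description and no test. It lies at -1.50 for Lycorine against DMSO in Runx+ cells. None of the 10 other genes, which were dim as a set, passed the test.

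The light chain gene b2m had a different order from mhc1haa, with its highest means in kdrl+ cells of both treatments. The array also measured b2ml, a second beta-2 microglobulin gene, which differed from b2m in DMSO. For b2ml, kdrl+ minus negative cells was -0.58 in DMSO and 0.61 under Lycorine, and Runx+ minus kdrl+ was 0.06 and -1.13. Lycorine minus DMSO in kdrl+ cells was 0.77 for b2ml. None of these b2ml differences was called. The gene b2m was rather dim, below the array's median gene on 16 of 18 arrays, and 30.9% of genes had a lower mean. In DMSO it read 4.59, 4.74 and 5.24 in Runx+ cells, against 6.22, 5.15 and 7.30 in kdrl+ cells. The kdrl+ arrays were spread over more than 2 log2 units, and replicate 2 overlapped with the Runx+ arrays. The difference for b2m was -1.37 ± 0.38 (95% interval -2.17 to -0.57, limma adjusted p = 0.0321). It was the only call among the 4 genes b2m, tap1, tapbp.1 and psmb8a in this comparison, where 8.43% of all genes were called.

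That call on b2m rested on single arrays. It was lost without DMSO Runx+ replicate 1 (difference -1.23, adjusted p = 0.0778), without DMSO Runx+ replicate 2 (-1.31, 0.0980), without DMSO kdrl+ replicate 1 (-1.37, 0.0629) and without DMSO kdrl+ replicate 3 (-0.83, 0.174), all in limma. Without DMSO kdrl+ replicate 2, an array with high liver, pancreas and gut markers, the difference was -1.90 (adjusted p = 0.00139). A fit to the 6 compared arrays alone gave adjusted p = 0.273. Without the 3 DMSO arrays numbered 2 the difference was -1.85 (adjusted p = 0.0055).

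Under Lycorine b2m read 4.31, 4.10 and 4.46 in Runx+ cells, against 5.61, 5.43 and 5.29 in kdrl+ cells. These 2 groups did not overlap, and both were tighter than in DMSO. The spread over all genes was also smaller with Lycorine, with a root mean square SD of 0.26 to 0.33, against 0.44 to 0.54 in DMSO. The share of all genes without overlap was not counted in any comparison. Little can thus be read from separated arrays, of b2m or of any other gene described. The difference of -1.15 ± 0.38 missed the threshold (limma adjusted p = 0.0542), in a comparison where 12.8% of all genes were called. It passed after median centring of the arrays (-1.24, adjusted p = 0.0362) and with arrays weighted by their quality (-1.18, adjusted p = 0.000377).

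In negative cells b2m read 4.63, 4.16 and 4.38 with Lycorine, against 5.01, 4.79 and 5.67 in DMSO. kdrl+ minus negative cells gave 1.05 ± 0.38 under Lycorine (limma adjusted p = 0.0814) and 1.07 ± 0.38 in DMSO (adjusted p = 0.0837), where 12.9% and 10.5% of all genes were called. Arrays of these sorts that share a replicate number deviated together. With the replicate number as a block both differences of b2m passed, with limma adjusted p = 0.038 under Lycorine and 0.0409 in DMSO. That block gave same-numbered arrays of all sorts and both treatments a shared effect, although not all of these deviated together. The pairing within a treatment was not fitted by itself. Without DMSO kdrl+ replicate 3 the DMSO difference was 0.53 (adjusted p = 0.371), and without DMSO kdrl+ replicate 2 it was 1.61 (adjusted p = 0.00433).

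The means of b2m were lower with Lycorine than with DMSO in all 3 sorts, and none of these differences passed. They were -0.57 ± 0.38 in Runx+ (limma adjusted p = 0.542), -0.78 ± 0.38 in kdrl+ (adjusted p = 0.449) and -0.76 ± 0.38 in negative cells (adjusted p = 0.742). On this brighter row the arrays of b2m did not overlap between treatments in Runx+ and in negative cells. On its second row they overlapped in both. There Runx+ cells read 4.27, 4.30 and 4.60 with Lycorine, against 4.24, 4.84 and 4.54 in DMSO. The share of all genes without overlap was not counted, so little can be read from the separation. Lycorine changed 10 of all genes in kdrl+ cells (0.052%) and 0 in negative cells (0%), with 2192 and 1302 at an unadjusted p below 0.05. The kdrl+ count was 424 without DMSO kdrl+ replicate 3, and 0 to 19 without any other single array of the comparison.

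The second, dimmer row of b2m also placed kdrl+ cells highest in DMSO, and showed a smaller gap under Lycorine. In DMSO it read 4.24, 4.84 and 4.54 in Runx+ cells, 5.34, 5.23 and 5.69 in kdrl+ cells and 4.44, 4.26 and 4.07 in negative cells. All 3 kdrl+ arrays stood above the other sorts, and Runx+ minus kdrl+ was -0.88 (limma adjusted p = 0.0108) and kdrl+ minus negative 1.16 (adjusted p = 0.00125). Under Lycorine the second row of b2m read 4.27, 4.30 and 4.60 in Runx+ cells, 4.60, 4.85 and 4.85 in kdrl+ cells and 4.23, 4.36 and 4.46 in negative cells. There kdrl+ minus negative was 0.42 (adjusted p = 0.221) and Runx+ minus kdrl+ -0.38 (adjusted p = 0.25), neither of which passed. For Lycorine against DMSO in negative cells the rows of b2m had opposite signs, -0.76 on the brighter and 0.09 on the dimmer row. The same held for Runx+ minus negative cells in DMSO, at -0.30 and 0.28.

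**Figure D3:**
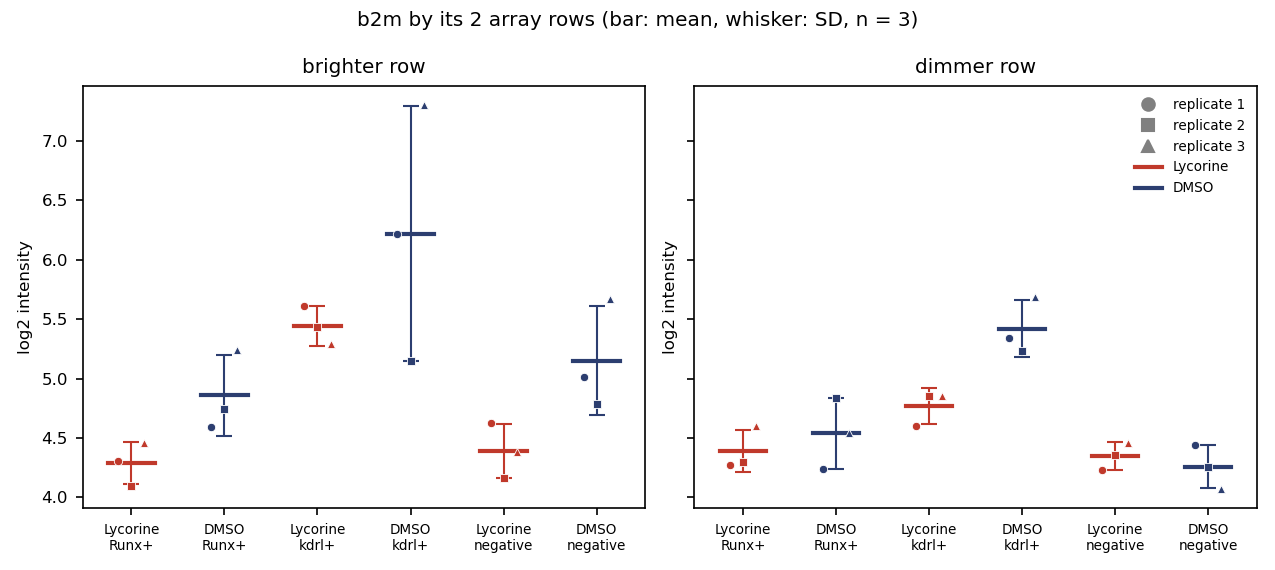
Log2 intensity of b2m on each array, for its 2 rows on a shared axis. Bars are means and whiskers the SD of 3 arrays; on the dimmer row the 3 DMSO kdrl+ arrays lie at 5.23 to 5.69, above all other arrays, while on the brighter row DMSO kdrl+ replicate 2 falls to 5.15.

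The immunoproteasome subunit gene psmb8a was dim on every array, so little can be read from it. It lay between 2.70 and 3.38, below the array's median gene on 18 of 18 arrays, and 3.6% of genes had a lower mean. Lycorine minus DMSO was -0.25 ± 0.19 in Runx+, -0.23 ± 0.19 in kdrl+ and -0.27 ± 0.19 in negative cells (limma adjusted p = 0.608, 0.658 and 0.792). Between sorts psmb8a differed by -0.17 to 0.13 and never passed. Whether a row this dim hid a difference was not tested.

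Of 14 measured genes that supply peptides (immunoproteasome subunits, proteasome activators and peptidases), psmb8a included, 2 were higher and 0 lower in kdrl+ cells when set against negative cells of either treatment, with median differences of 0.15 under Lycorine and 0.47 in DMSO, beside -0.03 and -0.05 over all genes. The count of 2 is near the background, since 12.9% of all genes were called under Lycorine and 10.5% in DMSO. The proteasome activator gene psme1 read 7.10, 6.53 and 5.76 in kdrl+ cells with Lycorine, against 4.21, 3.87 and 3.71 in negative cells with Lycorine. The kdrl+ arrays all stood above the negative arrays, and the difference for psme1 was 2.53 ± 0.58 (limma adjusted p = 0.0079). In DMSO psme1 read 6.03, 5.92 and 7.12 in kdrl+ cells, against 3.79, 5.69 and 3.56 in negative cells, a difference of 2.01 ± 0.58 (adjusted p = 0.0352). The DMSO call on psme1 was lost without DMSO negative replicate 1, DMSO negative replicate 3 or DMSO kdrl+ replicate 3 (adjusted p of 0.130 to 0.165), and the Lycorine call was kept without any single array.

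Other calls among the peptide supply genes were fewer. The activator gene psme2 was higher in kdrl+ than in negative cells under Lycorine, by 0.92 ± 0.25 (limma adjusted p = 0.0189), and lower in Lycorine Runx+ than in Lycorine kdrl+ cells (difference -1.0 ± 0.25, adjusted p = 0.0131). Both psme2 calls were lost without Lycorine kdrl+ replicate 2, the first also without Lycorine negative replicate 1 and the second without Lycorine Runx+ replicate 1 (adjusted p of 0.0649 to 0.101). The immunoproteasome subunit gene psmb10 was lower in DMSO Runx+ than in DMSO kdrl+ cells (difference -1.13 ± 0.24, adjusted p = 0.00597), a call kept without any single array and lost in a fit to the compared arrays alone (0.151). The difference of psmb10 between kdrl+ and negative cells in DMSO, 0.88 ± 0.24 (adjusted p = 0.0232), was lost without DMSO negative replicate 1 or 3 or DMSO kdrl+ replicate 1 (0.0804 to 0.0939). For psme1, Runx+ minus kdrl+ under Lycorine was -2.45 ± 0.58 (adjusted p = 0.0111), lost without Lycorine Runx+ replicate 1 or Lycorine kdrl+ replicate 1 (0.0563 for both). The constitutive subunit genes psmb5, psmb6 and psmb7 had 0 of 3 called in the 9 direct comparisons, where 0% to 12.9% of all genes were called.

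The transporter gene tap1 had its highest means in kdrl+ cells, with differences that did not pass. It was dim, below the array's median gene on 18 of 18 arrays, and 22.8% of genes had a lower mean. It read 4.45, 4.20 and 4.81 in Runx+ cells with Lycorine, and 4.68, 4.44 and 4.44 in Runx+ cells in DMSO. In kdrl+ cells tap1 read 4.66, 5.06 and 4.74 with Lycorine, and 4.46, 5.24 and 5.63 in DMSO. In negative cells it read 4.16, 4.24 and 4.11 with Lycorine, and 4.67, 4.57 and 4.49 in DMSO. The Lycorine kdrl+ arrays lay above the Lycorine negative arrays without overlap, while in DMSO kdrl+ replicate 1 was the lowest of its group and fell below all 3 negative arrays.

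Under Lycorine, tap1 in kdrl+ minus negative cells was 0.65 ± 0.25 (limma adjusted p = 0.105), and in DMSO 0.53 ± 0.25 (adjusted p = 0.203). Runx+ minus kdrl+ was -0.33 ± 0.25 under Lycorine (adjusted p = 0.449) and -0.59 ± 0.25 in DMSO (adjusted p = 0.165). Without DMSO kdrl+ replicate 1, tap1 passed in both DMSO comparisons, with 0.86 for kdrl+ minus negative (adjusted p = 0.0188) and -0.91 for Runx+ minus kdrl+ (adjusted p = 0.0167). Lycorine minus DMSO was -0.04 ± 0.25 in Runx+, -0.29 ± 0.25 in kdrl+ and -0.41 ± 0.25 in negative cells, and none passed.

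The tapasin gene tapbp.1 had its highest group means in kdrl+ cells, but single arrays of these groups disagreed. It too was dim, below the array's median gene on 18 of 18 arrays, and 22.1% of genes had a lower mean. It read 3.97, 4.10 and 4.77 in Runx+ cells with Lycorine, and 4.23, 4.55 and 3.91 in Runx+ cells in DMSO. In kdrl+ cells tapbp.1 read 5.81, 5.09 and 4.21 with Lycorine, and 5.26, 4.32 and 5.75 in DMSO. In negative cells it read 4.37, 4.80 and 4.04 with Lycorine, and 4.47, 4.45 and 4.19 in DMSO. Lycorine kdrl+ replicate 3 and DMSO kdrl+ replicate 2 fell within the range of the other sorts. Runx+ minus kdrl+ was -0.76 ± 0.38 under Lycorine (limma adjusted p = 0.217) and -0.88 ± 0.38 in DMSO (adjusted p = 0.181). Without DMSO kdrl+ replicate 2 the DMSO difference of tapbp.1 was -1.27 (adjusted p = 0.0452). Lycorine minus DMSO was 0.05, -0.07 and 0.04 in Runx+, kdrl+ and negative cells, each ± 0.38.

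**Figure D4:**
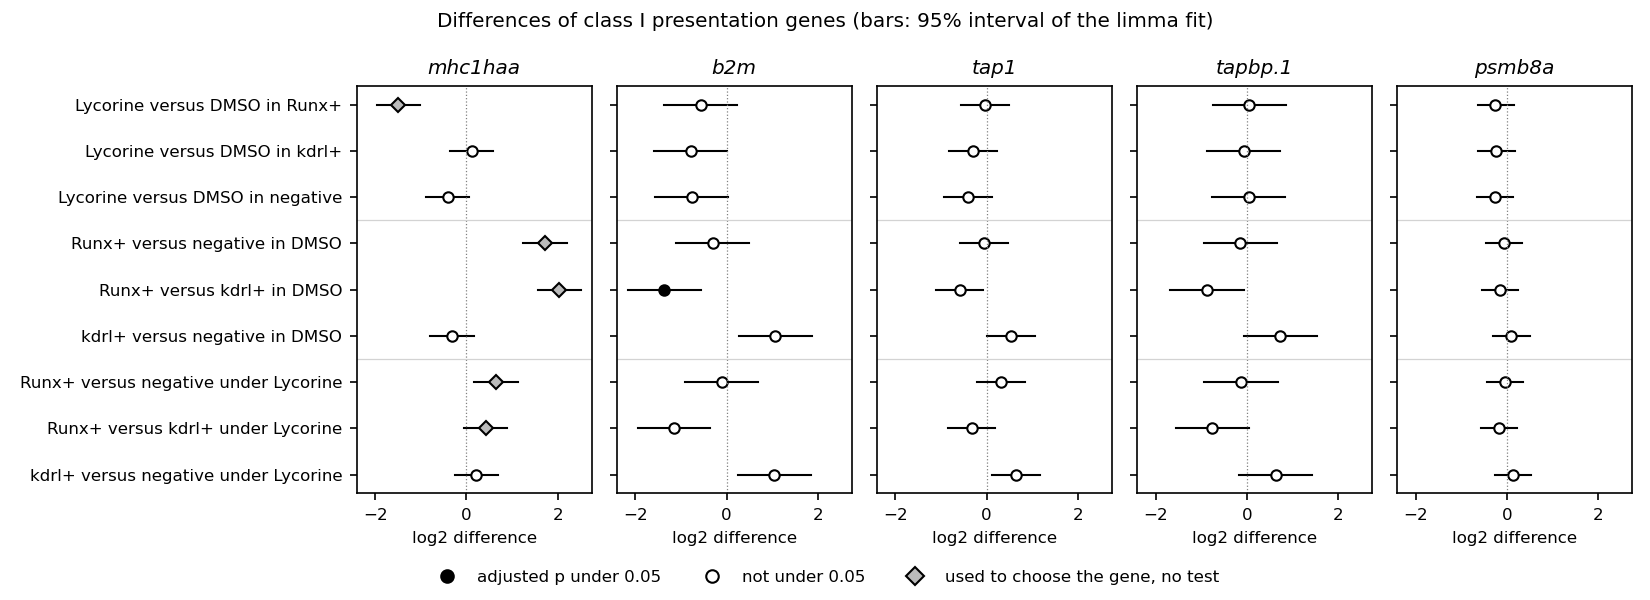
Log2 differences of the 5 genes in 9 comparisons, with limma estimates as points and 95% intervals as lines. The 1 filled point is b2m in Runx+ against kdrl+ cells in DMSO (-1.37), and the grey diamonds are mhc1haa values that the choice of the gene used. The intervals of the diamonds are a description and no test.

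Among 12 measured genes of peptide transport and loading, tap1 and tapbp.1 included, 2 were higher and 0 lower in kdrl+ than in negative cells under Lycorine, and 1 was higher and 1 lower in DMSO. These counts too are near the 12.9% and 10.5% called over all genes. The transporter gene abcb9, whose mammalian product carries peptides into lysosomes, read 6.63, 6.38 and 6.14 in kdrl+ cells with Lycorine, against 4.63, 4.42 and 4.84 in negative cells with Lycorine. In DMSO abcb9 read 7.11, 5.89 and 7.26 in kdrl+ cells, against 4.92, 4.68 and 4.63 in negative cells. The groups did not overlap in either treatment, with differences of 1.76 ± 0.31 under Lycorine (limma adjusted p = 0.00101) and 2.01 ± 0.31 in DMSO (adjusted p = 0.000427), kept without any single array. Runx+ minus kdrl+ for abcb9 was -1.54 ± 0.31 under Lycorine (adjusted p = 0.003), also kept. The -1.20 ± 0.31 of abcb9 in DMSO (adjusted p = 0.0203) was lost without DMSO kdrl+ replicate 1, DMSO Runx+ replicate 2 or DMSO kdrl+ replicate 3 (0.0710 to 0.119).

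The transporter gene tap2t was higher in kdrl+ than in negative cells under Lycorine by 0.87 ± 0.24 (limma adjusted p = 0.0213), and Runx+ minus kdrl+ was -0.90 ± 0.24 (adjusted p = 0.0196). The first tap2t call was lost without any 1 of 5 arrays, all but Lycorine negative replicate 1, and the second without any 1 of 4, all but Lycorine Runx+ replicates 2 and 3 (0.0538 to 0.0891). The chaperone gene calr was lower in DMSO kdrl+ than in DMSO negative cells (difference -1.06 ± 0.29, adjusted p = 0.0274), and lost its call without DMSO negative replicate 1 or 3 or DMSO kdrl+ replicate 2 (0.105 to 0.137). Lycorine changed 0 of the 14 peptide supply genes and 0 of the 12 transport and loading genes in any sort. Over all genes 0% were called for Lycorine in Runx+, 0.052% in kdrl+ and 0% in negative cells, so these counts say little about the lists.

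**Figure D5:**
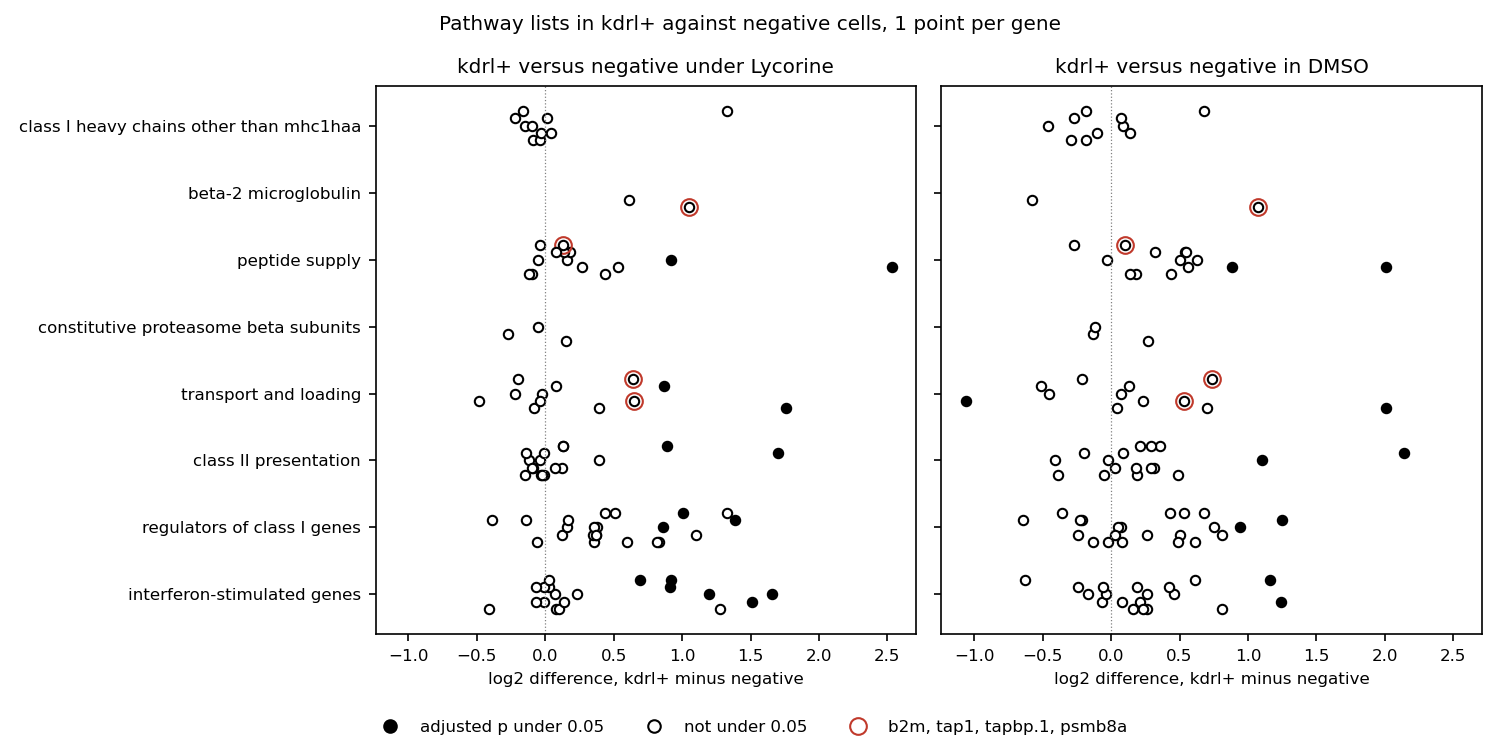
Log2 differences between kdrl+ and negative cells, under Lycorine and in DMSO, for the genes of 8 lists, 1 point per gene. Filled points passed the test and red rings mark b2m, tap1, tapbp.1 and psmb8a; psme1 (2.53 and 2.01) and abcb9 (1.76 and 2.01) lie farthest to the right in their lists.

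Some genes that regulate class I expression or answer to interferon were called between sorts, and none between treatments. Between treatments 0% to 0.052% of all genes were called, so the absence of calls there says little. Of 22 regulators, 3 were higher in kdrl+ than in negative cells under Lycorine (jak2b, ifngr1l and nfkb1) and 2 in DMSO (jak2b and nfkb1). Of 19 interferon-stimulated genes, 6 were higher under Lycorine (isg15, irf3, trim25, ifi44g, gbp1 and gbp2) and 2 in DMSO (isg15 and ifi44g). Over all genes 12.9% were called under Lycorine and 10.5% in DMSO, in either direction, so the regulator counts and the interferon count in DMSO are near the background. The guanylate-binding protein gene gbp1 had the largest of these differences under Lycorine, at 1.66 ± 0.32 (limma adjusted p = 0.00256), and isg15, a ubiquitin-like modifier gene, differed by 1.51 ± 0.37 (adjusted p = 0.0108). The median differences were 0.38 for regulators and 0.10 for interferon-stimulated genes under Lycorine. When single arrays were left out, gbp1 under Lycorine and ifi44g in DMSO (1.16 ± 0.20, adjusted p = 0.00146) kept their calls. Each of the other calls in this paragraph was lost without at least 1 array. With the replicate number as a block, ifngr1l (adjusted p = 0.0599) and trim25 (adjusted p = 0.0556) also lost theirs under Lycorine.

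Of 17 genes of class II presentation, the pathway for peptides taken up from outside, 2 were higher in kdrl+ than in negative cells under Lycorine (ifi30a and ctss2.1) and 2 in DMSO (ctss1 and ctss2.1). All 3 encode lysosomal enzymes, a thiol reductase and cathepsin S proteases, and none of the class II chain genes passed. The counts are near the all-gene shares of 12.9% and 10.5%. The largest difference was that of ctss2.1, at 1.70 ± 0.42 under Lycorine (limma adjusted p = 0.0128) and 2.14 ± 0.42 in DMSO (adjusted p = 0.00346). Between Runx+ and kdrl+ cells, 2 of the 17 class II genes were lower in Runx+ cells under each treatment, as were 2 and 1 of the 22 regulators and 5 and 1 of the 19 interferon-stimulated genes, under Lycorine and in DMSO, where 12.8% and 8.43% of all genes were called. On leaving out single arrays, the 4 DMSO calls among these were each lost at least once, while under Lycorine 2 class II, 1 regulator and 1 interferon-stimulated gene kept theirs. The regulator was ifngr1l, whose difference of -1.50 became -0.28 (limma adjusted p = 0.579) with the mean over its rows, so this call depends on the row. Between Runx+ and negative cells 0 genes of these pathway lists were called in either treatment. With 0.0104% of all genes called there under Lycorine and 0.0052% in DMSO, this says little about the lists. The only genes called there under Lycorine were hbbe2 and hbae3, globin genes of the erythroid marker list, both lower in Runx+ cells. The Lycorine call of ctss2.1 was lost without Lycorine negative replicate 2 or Lycorine kdrl+ replicate 2 (0.0593 and 0.0656), that of ifi30a without any 1 of 4 arrays (0.0647 to 0.119), and the DMSO call of ctss1 without any 1 of 3 (0.0535 to 0.0781).

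The 5 leukocyte markers called between kdrl+ and negative cells under Lycorine, and the 4 called in DMSO, moved in the same direction as b2m, psme1 and abcb9. The 13 endothelial markers also moved that way, with medians of 4.56 under Lycorine and 3.73 in DMSO. Of the genes named, b2m was not called in these comparisons, and calr, called in DMSO, moved the other way (-1.06). Leukocyte markers averaged 7.81 to 8.52 in Lycorine kdrl+ arrays, against 5.70 to 5.97 in Lycorine negative arrays, and 8.33 to 9.25 in DMSO kdrl+ arrays, against 5.95 to 6.66 in DMSO negative arrays. Of 9 myeloid markers, 6 were higher under Lycorine and 5 in DMSO. The part of any of these cell types in the kdrl+ values of b2m, tap1, tapbp.1 and the lists was not tested.

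Over the 18 arrays mhc1haa did not follow the other 4 genes. This is a description, since its values in Runx+ cells were used to choose it and shape each r with it. Pearson's r with mhc1haa was -0.19 for b2m, -0.14 for tap1, -0.36 for tapbp.1 and 0.04 for psmb8a. Among the others, r was 0.67 for b2m with tap1, 0.65 for b2m with tapbp.1 and 0.51 for tap1 with tapbp.1. Arrays of a group share a sort and a treatment, so these values describe the 6 groups more than 18 separate samples. For deviations from the group means r was 0.20, 0.47 and 0.21 for the same pairs.

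The 5 genes whose values were most like those of mhc1haa over the 18 arrays were noxo1a (r = 0.91), ildr1b (0.91), nqo1 (0.89), bltp3b (0.89) and gad3 (0.89). Over the 6 group means they were swap70a (0.996), pals1a (0.994), slc44a4 (0.990), zyg11l (0.990) and b4galt4 (0.990). No gene was among the 5 by both measures. The group means of noxo1a were 5.88 in Lycorine Runx+ and 7.31 in DMSO Runx+ cells, and between 4.84 and 5.76 in the other 4 groups. Those of swap70a were 4.96 in Lycorine Runx+ and 6.06 in DMSO Runx+ cells, and between 4.45 and 4.82 elsewhere.

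The difference between Lycorine effects in 2 sorts was tested for b2m, tap1, tapbp.1 and psmb8a, and none passed, with 0 of 19247 genes called in each of the 3 such comparisons (0%). At an unadjusted p below 0.05 there were 852, 321 and 512 genes for Runx+ against kdrl+, Runx+ against negative and kdrl+ against negative cells. The difference of the Lycorine effect on b2m in Runx+ minus that in kdrl+ cells was 0.21 ± 0.54, with an interval of -0.92 to 1.34. A difference of either sign in the Lycorine effect on b2m is within that interval.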

How the data were processed

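The deposited table holds log2 values of 65528 rows on 18 arrays. Per the submitters' processing notes, which list oligo, RMA and limma without versions, the authors' log2 intensities are taken to be RMA-normalized. No detection calls were used. Rows with 1 symbol (20806) were named through Entrez identifiers, symbols or synonyms of a RefSeq table of GRCz12tu. The row with the highest mean stood for a gene, which left 19247 genes with no filter. The members and lists were chosen with earlier results of these data known. Named were the 5 members, members of a pathway list past the threshold (at most 6 a list and comparison) the genes most like mhc1haa, and runx1, kdrl and itga2b. The heavy chain genes and b2ml given with values were chosen after their values were seen.

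limma 3.58.1 (R 4.3.3) fitted 6 group means to all 18 arrays with eBayes, 2-sided, and adjusted p-values by Benjamini-Hochberg over all genes in each of 12 comparisons, many of which share arrays. The fit pools the spread of Lycorine and DMSO groups, although the root mean square SD of genes was 0.26 to 0.33 with Lycorine and 0.44 to 0.54 in DMSO. The fit was tested on simulated data only with 1 spread per gene in all groups, which does not bear on this difference. Same-numbered arrays deviated together (r over 0.1 in every pair) for kdrl+ and negative cells (0.22 to 0.42 under Lycorine, 0.12 to 0.39 in DMSO), Runx+ and kdrl+ in DMSO (0.33 to 0.42) and Lycorine and DMSO negative cells (0.15 to 0.31), and not for the other comparisons. The pairing comes from these correlations. Alternatives were a replicate block, only the arrays compared, median centring, cyclic loess, dim genes left out, the mean over rows, array weights and leaving out each array. Leaving out the 3 DMSO arrays numbered 2 and the second row of b2m were added after seeing the data. Tables used Python 3.11.15 with pandas 2.3.3, and figures matplotlib 3.10.9.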

Additional observations from a re-analysis of the deposited data

How the results depend on the processing

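Of b2m, tap1, tapbp.1 and psmb8a, 1 was called in Runx+ against kdrl+ cells in DMSO; this became 0 with only the arrays compared, and 0 to 2 when single arrays were left out. For kdrl+ against negative cells in DMSO 0 became 1 with the replicate block, median centring, the mean over rows, the second row of b2m, or without the 3 DMSO arrays numbered 2, and 0 to 1 without single arrays. For Runx+ against kdrl+ cells under Lycorine 0 became 1 with the replicate block (b2m adjusted p = 0.0259 in limma, though these arrays did not pair), only the arrays compared, median centring or cyclic loess, and 3 with array weights. For kdrl+ against negative cells under Lycorine 0 became 1 with the replicate block and 2 with only the arrays compared or array weights. The replicate block changed no other call of these 4 genes. Of 771 tested values recomputed for the members, 745 kept their side of the threshold, 5 lost a call, 21 gained one and 0 reversed. The 108 untested values of mhc1haa all moved by less than 1 SD, and its Lycorine difference in Runx+ cells ranged from -1.66 to -1.36. The gene was chosen for such differences on these same arrays, so their stability is a description and lends them no support. Fits to only the compared DMSO arrays also ended the DMSO calls of psme1 (adjusted p = 0.0759 in limma), calr (0.179), isg15, jak2b, nfkb1, runx1, and ctss1 and psmb10 in kdrl+ against negative cells, and of abcb9 (0.255), ctss1, ctss2.1 (0.145), ifi44g (0.261), psmb10 and rfxank (0.267) in Runx+ against kdrl+ cells. Among list genes, ifngr1l in kdrl+ against negative cells under Lycorine was -0.54 with the mean over its rows, against 1.01. All-gene counts ran widely over the alternatives. They were 0 to 1107, 0 to 424 and 0 to 9 for Lycorine in Runx+, kdrl+ and negative cells, 0 to 568, 172 to 1916 and 730 to 2261 for Runx+ against negative, Runx+ against kdrl+ and kdrl+ against negative cells in DMSO, and 0 to 257, 1012 to 6194 and 1145 to 5880 for the same under Lycorine. The cause of these moves was not tested. With dim genes left out, b2m, tap1, tapbp.1 and psmb8a gave no value, since their means lay below the filter. Median centring and cyclic loess shifted array medians by at most 0.15 and 0.19.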
